A study of Mus musculus with 18 samples.

Results

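Oxidative phosphorylation runs on 5 protein complexes of the inner mitochondrial membrane, numbered I to V, and the genes for their nuclear-encoded subunits were followed here in mouse embryos that were homozygous mutant, heterozygous or wild type for Nkx2-5, a transcription factor of the early heart. Members were the probe sets with a single annotated symbol that starts with Nduf, Sdha, Sdhb, Sdhc, Sdhd, Uqcr, Cox4, Cox5, Cox6, Cox7, Cox8 or Atp5, or that equals Cyc1 or Cycs. A probe set is a group of oligonucleotide probes read as 1 intensity. The rule found 70 probe sets for 60 genes among 13057 probe sets, 54 on array type a and 16 on array type b. Of these, 61 probe sets for 55 genes were bright enough to be tested. Complex I had 24 probe sets with 22 tested, complex II 5 with 3 tested, complex III 8 with 8 tested, complex IV 16 with 13 tested and complex V 15 with 13 tested, and both probe sets of cytochrome c were tested.

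RNA was taken from the middle segment of embryos at day 9.5 of development, so all tissues of that segment were measured together. Homozygous mutants were replicates 2 and 6 on both array types, 8 on type a (called 8a) and 9 on type b (called 9b). Whether 8a and 9b hold RNA of the same embryo or pool is not given in the labels, and they are treated below as 1 replicate. Heterozygotes were replicates 3, 4 and 8, and wild-type embryos were replicates 1, 5 and 7. The mutant allele, the strain and the number of embryos per array are not given in the labels, and 0 of the 7785 annotated probe sets carried the symbol of the mutated gene, so the genotypes rest on the labels.

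Complex I (NADH dehydrogenase) and complex II (succinate dehydrogenase) pass electrons from food to coenzyme Q. Complex III passes them on to cytochrome c, and complex IV (cytochrome c oxidase) hands them to oxygen. Complexes I, III and IV pump protons as they do so, and complex V (ATP synthase) makes ATP from the proton gradient. Complexes I, III, IV and V are partly encoded by mitochondrial DNA, none of whose 13 protein genes had a probe set (0 of 13). The early embryo relies strongly on glycolysis, and the heart is among the first tissues to build up mitochondria.

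Nuclear genes of the chain, cytochrome c among them, are textbook targets of nuclear respiratory factor 1, whose palindromic site has the core CGCATGCG. A promoter was found in RefSeq (build GRCm38.p6) for 49 of the 60 member genes, 53 promoters in all, each from 250 bases before to 50 after a start site. The exact letters, which read the same on both strands, stood in 9 of these 53 promoters (17.0%) and in 615 of all 32851 promoters (1.87%). The stretches of 7 members are shown because the core lies wholly before their start, with the core in capitals, 5′ to 3′ on the strand of the gene:
Atp5j, chr16:84835091-84835148, minus strand: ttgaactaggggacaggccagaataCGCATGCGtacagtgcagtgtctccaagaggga
Atp5k, chr5:108434416-108434473, minus strand: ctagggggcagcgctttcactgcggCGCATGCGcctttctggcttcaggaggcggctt
Atp5l, chr9:44920951-44920992, minus strand: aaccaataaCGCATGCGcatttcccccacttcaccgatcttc
Cox6a1, chr5:115349087-115349144, minus strand: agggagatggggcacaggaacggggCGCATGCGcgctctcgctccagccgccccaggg
Cycs, chr6:50566598-50566655, minus strand: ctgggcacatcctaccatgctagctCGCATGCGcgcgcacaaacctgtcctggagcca
Ndufa11, chr17:56717678-56717735, plus strand: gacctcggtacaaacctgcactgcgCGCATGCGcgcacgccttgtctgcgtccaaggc
Ndufaf4, chr4:24897946-24898003, plus strand: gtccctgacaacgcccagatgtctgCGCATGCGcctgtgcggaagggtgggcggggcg

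The core begins 147 bases before the start in Atp5j, 49 in Atp5k, 241 in Atp5l, 161 in Cox6a1, 61 in Cycs, 59 in Ndufa11 and 112 in Ndufaf4. It spans the start in Uqcr11 and lies after the start in Uqcrc1. Letters of 2 other factors linked to mitochondrial genes, searched on both strands, were CCGGAAGT (ETS family, GABP) in 3 of the 53 promoters (5.66%, against 3.89% of all promoters) and AAGATGGC (YY1) in 5 (9.43%, against 2.75%). The log2 differences of homozygous mutant minus wild type of the 7 members shown had both signs, with -0.08 for Atp5j, -0.08 for Atp5k, 0.36 for Atp5l, 0.11 for Cox6a1, -0.45 and -0.37 for the probe sets of Cycs, 0.21 for Ndufa11 and -0.45 for Ndufaf4, and none passed the test described next.

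No member differed between genotypes past the threshold. Each probe set was compared on the log2 scale with limma, after values under a floor of 375.1 on type a and 523.1 on type b were raised to it, and a call was an adjusted p under 0.05 over all 6935 tested probe sets. Of the 61 members 0 were called in homozygous mutants against wild type, where 0.692% of all tested probe sets were called. Likewise 0 were called in heterozygotes against wild type (0% of all) and 0 in homozygous mutants against heterozygotes (1.15% of all). The smallest adjusted p values among members in these comparisons were 0.125, 1 and 0.0607. At an unadjusted p under 0.05, 3 members were higher and 2 lower in homozygous mutants against wild type, where 5.72% and 5.48% of all probe sets were, so that these counts were near the background. Against heterozygotes 13 members were higher in homozygous mutants (7.21% of all probe sets) and 1 was lower (8.51%). In heterozygotes against wild type 0 were higher (1.27% of all) and 0 lower (0.433%).

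The medians of the complexes differed, but they rest on 2 to 22 tested probe sets each, and differences between complexes were not tested. The median log2 difference of homozygous mutant minus wild type was 0.06 over the 61 members, with 35 positive, against -0.02 over all tested probe sets. By complex it was 0.01 for I, -0.22 for II, 0.07 for III, 0.24 for IV, 0.05 for V and -0.41 for the 2 probe sets of cytochrome c. The high median of complex IV was lost without 8a and 9b, as given below. In heterozygous minus wild type the median was -0.13 over the members with 50 of 61 negative, against 0.03 over all probe sets, of which 3026 of 6935 were negative. By complex it was -0.08 for I, -0.17 for II, -0.21 for III, -0.13 for IV, -0.08 for V and -0.25 for cytochrome c. These comparisons share the wild-type arrays.

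**Figure D1:**
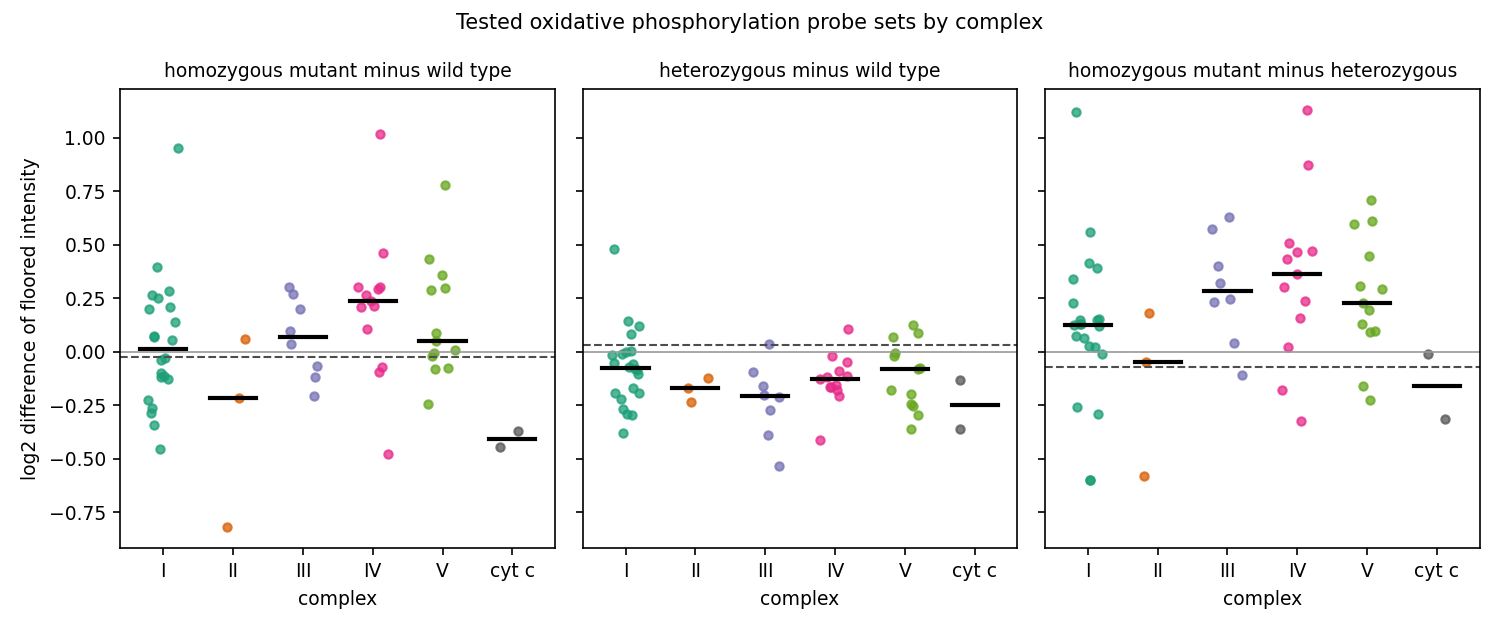
Log2 difference of floored intensity for each tested member (points) in complexes I to V and cytochrome c, with the median of each complex as a black bar and the median of all tested probe sets as a dashed line, in 3 comparisons. In homozygous mutant minus wild type the medians run from -0.41 for cytochrome c to 0.24 for complex IV, and in heterozygous minus wild type every complex has a median under 0.

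In homozygous mutants the replicates were far apart. Median deviations of the 61 members from the wild-type mean were -0.07 in homozygous mutant 2, -0.03 in 6 and 0.29 in 8a and 9b. In heterozygotes 3, 4 and 8 they were -0.10, -0.11 and -0.12, and in wild type 1, 5 and 7 they were 0.03, -0.04 and 0.03. Homozygous mutants 2 and 6 thus lay inside or just under the wild-type range, and 8a and 9b lay above every other replicate. These arrays held the highest value of the 9 in 33 of 61 members (54.1%), against 14.8% of all tested probe sets.

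Arrays 8a and 9b also stood apart in other measures. The actin 3′ to 5′ ratio, a common measure of how intact the RNA is, was 2.50 for 8a and 2.28 for 9b, against 0.967 to 1.41 on the rest of type a and 0.849 to 1.40 on the rest of type b. A spiked-in control, BioB, read 3950.1 and 4531 there, against at most 1539 and 2320.4 elsewhere. The 14 probe sets of 11 heart muscle genes had median deviations of -0.41, 0.10 and 0.86 in homozygous mutants 2, 6 and 8a with 9b, of -0.32, -0.67 and 0.07 in heterozygotes 3, 4 and 8, and of -0.28, 0.02 and 0.27 in wild type 1, 5 and 7. Their summed intensity on type a was 46474 to 120455 in homozygous mutants, 40153 to 80579.9 in heterozygotes and 54795 to 83070.5 in wild type, and on type b 104351 to 212663.5, 103495 to 131283 and 121111 to 164781 in the same order. Of the 17 listed heart genes, Myl7, Myh7, Tnni1, Mybpc3, Ttn and Pln had no probe set of their own, and the other 11 were all tested. The 7 neural tube probe sets were under the wild-type mean in all homozygous mutants, with median deviations of -0.69, -1.27 and -1.41, against -0.02, -0.14 and 0.27 in heterozygotes and 0.19, -0.05 and -0.28 in wild type. Red blood cell genes had their highest summed intensity in 8a (117342, against at most 99701 elsewhere) and 9b (210105, against at most 163213). Their median deviation there was -0.11, within the wild-type range of -0.28 to 0.17. The liver bud and visceral endoderm list had -0.31 there, within the wild-type range of -0.41 to 0.30. The part of RNA quality and of heart muscle, neural tube and blood content in the members' values was not tested. In such mixed samples fewer cells of a type and less RNA per cell cannot be told apart.

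**Figure D2:**
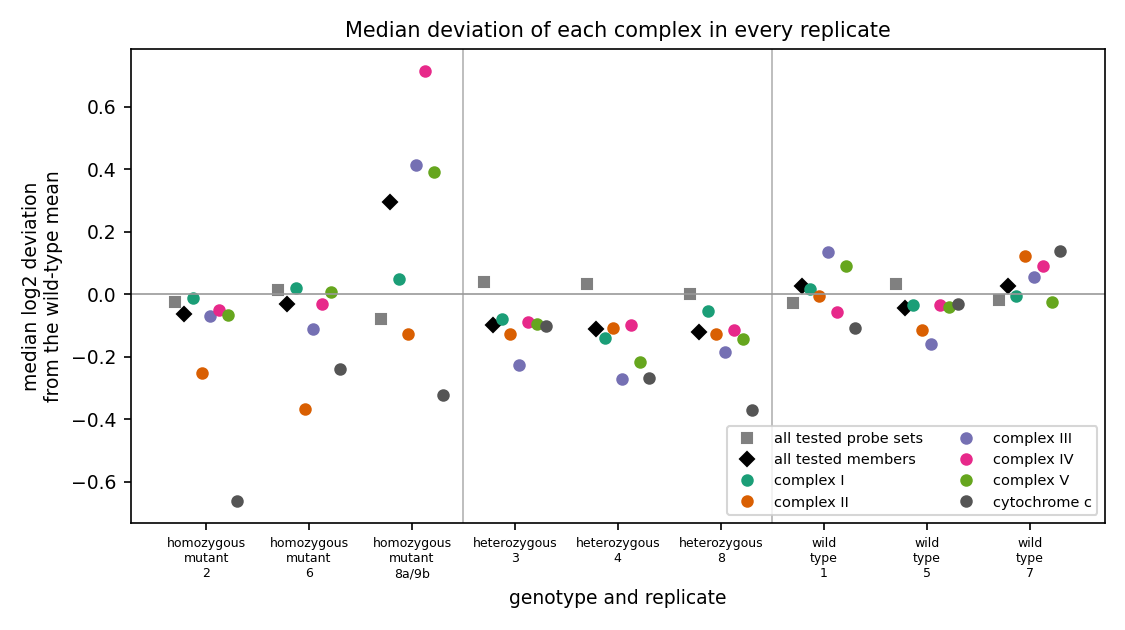
Median log2 deviation from the wild-type mean of each complex (circles), all 61 tested members (diamonds) and all tested probe sets (squares), by genotype and replicate. Complexes III, IV and V stand at 0.41, 0.71 and 0.39 in homozygous mutants 8a and 9b and between -0.11 and 0.01 in homozygous mutants 2 and 6.

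The gap between replicates was not even over the complexes. In homozygous mutants 2, 6 and 8a with 9b the median deviation was -0.01, 0.02 and 0.05 for complex I, but -0.07, -0.11 and 0.41 for complex III, -0.05, -0.03 and 0.71 for complex IV and -0.07, 0.01 and 0.39 for complex V. The medians of complex II (-0.25, -0.37 and -0.13) and cytochrome c (-0.66, -0.24 and -0.32) were under the wild-type mean in all of them. That of complex II rests on 3 probe sets, and its value in 8a is that of Sdhc at the floor. In homozygous mutants 2 and 6, 33.3% of its probe sets were above the wild-type mean. In 8a and 9b the 33 accessory subunits had a median deviation of 0.42 and the 5 small membrane subunits of ATP synthase 0.60. The 4 probe sets of the catalytic head of ATP synthase had 0.26, and the 6 catalytic core subunits of complexes I to III had 0.01. The core group held no probe set of complexes IV and V, so these places also differ in complex. Without 8a and 9b the median of homozygous mutant minus wild type became -0.06 over all members, with 24 of 61 positive, and -0.06 for complex IV with 3 of 13 positive.

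In complex I, 11 of 22 tested probe sets were positive in homozygous mutant minus wild type. Ndufv3, an accessory subunit of the arm that takes up electrons from NADH, differed most. It read 7585, 7015 and 15309 in homozygous mutants 2, 6 and 8a, against 3880.3, 3959 and 5152 in heterozygotes and 4624, 4684 and 5188 in wild type. Every homozygous mutant was above every other array, with 8a far above 2 and 6. The log2 difference from wild type was 0.95 (95% interval 0.39 to 1.51), or 1.94-fold, and did not pass (limma's adjusted p = 0.141). Against heterozygotes it was 1.12 (interval 0.56 to 1.68, adjusted p = 0.0607). Without 8a these differences were 0.60 (adjusted p = 0.142) and 0.76 (adjusted p = 0.0532).

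No core subunit of complex I passed the test. Ndufv1, which binds NADH, had a log2 difference of homozygous mutant minus wild type of -0.34 (interval -0.87 to 0.18), Ndufv2 of 0.05 (-0.23 to 0.34) and Ndufs3 of -0.03 (-0.33 to 0.26). Without the outlying replicate, 9b or 8a, these were -0.58 for Ndufv1 (limma's adjusted p = 0.259), 0.14 for Ndufv2 and -0.07 for Ndufs3. Ndufab1, the acyl carrier protein that also serves mitochondrial fatty acid synthesis, had -0.29 (-1.04 to 0.47). In homozygous mutants and wild type the only other probe set of complex I without overlap was Ndufb11, an accessory subunit, with 11836, 11102 and 16914 in homozygous mutants and 10414, 10967 and 10742 in wild type, at 0.29, or 0.10 without 8a. With Ndufv3 that made 2 of the 6 members higher without overlap in this comparison, which 7.24% of all tested probe sets were.

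Assembly factors of complex I went either way. Ndufaf4 read 361, 497 and 382 in homozygous mutants, 671, 511 and 724 in heterozygotes and 363, 671 and 728 in wild type. Homozygous mutants were all under the heterozygotes and overlapped wild type, and all lay close to the floor of 375.1. Both probe sets of Ndufaf1 were slightly positive in homozygous mutant minus wild type (0.07 and 0.25). The 2 probe sets of Ndufa10 were too dim to be tested.

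Complex II was thinly covered. Its flavoprotein Sdha had no probe set of its own, and the membrane anchor Sdhd was under the floor on all 9 arrays. Sdhaf1, which helps to insert iron-sulfur clusters into Sdhb, gave the lowest member value of the comparison. Its brighter probe set read 584, 523 and 780.3 in homozygous mutants 2, 6 and 8a, 782, 1013 and 1007 in heterozygotes and 954, 1139.8 and 1200.4 in wild type. Homozygous mutants were under all other arrays, 8a only just under heterozygote 3, and heterozygotes overlapped wild type. The log2 difference was -0.82 from wild type (interval -1.38 to -0.25, limma's adjusted p = 0.231) and -0.58 from heterozygotes (interval -1.15 to -0.02, adjusted p = 0.304), and without 8a it was -0.98 and -0.75. The other Sdhaf1 probe set was negative on every array.

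The iron-sulfur subunit Sdhb itself read 7422, 6854 and 8658 in homozygous mutants, 9260.0, 7897 and 6658 in heterozygotes and 8796, 8157 and 9632 in wild type. The groups overlapped, at a log2 difference of -0.22 from wild type (interval -0.56 to 0.13). The anchor Sdhc was above the floor on 4 of 9 arrays, 2 of them homozygous mutant, so that no difference was detectable at this signal.

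**Figure D3:**
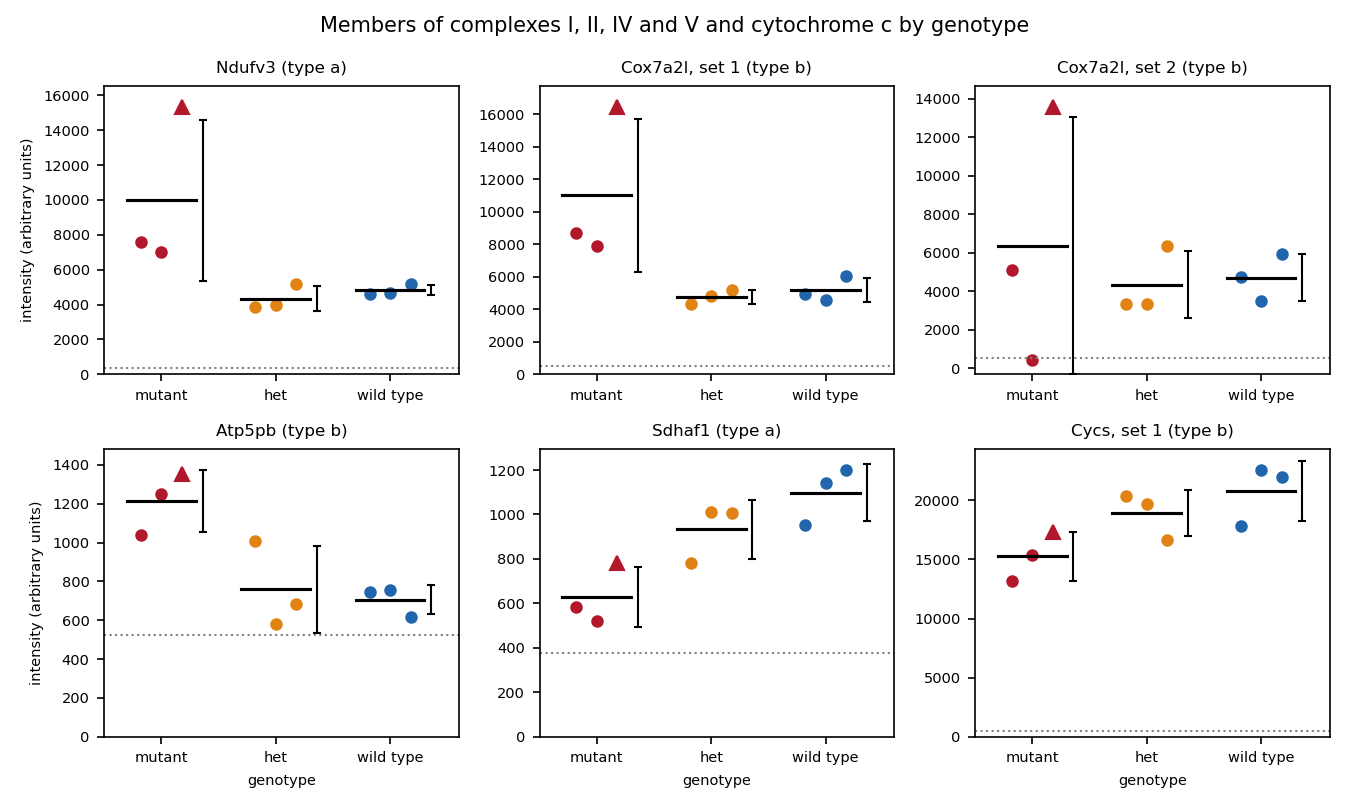
Intensity of 6 member probe sets by genotype, with a point for each array, the mean as a black bar, the SD beside it and the floor as a dotted line. Homozygous mutant 8a or 9b is a triangle. It is the highest array for Ndufv3, both Cox7a2l probe sets and Atp5pb, and it is under every wild-type array for Sdhaf1 and for Cycs.

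In complex III, 5 of 8 members were positive in homozygous mutant minus wild type and 7 of 8 negative in heterozygous minus wild type. Without 8a 3 of 8 were positive in the first, at a median of -0.08. Uqcrfs1, the Rieske iron-sulfur protein, read 6467, 7499 and 9059.8 in homozygous mutants, 5556, 5645 and 6091 in heterozygotes and 6978, 6183 and 6747 in wild type. The heterozygotes were under all other arrays, and homozygous mutants overlapped wild type. The log2 difference of homozygous mutant minus heterozygous was 0.40 (interval 0.08 to 0.72, limma's adjusted p = 0.218), and that of heterozygous minus wild type was -0.20 (interval -0.53 to 0.12).

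Uqcrq, a small subunit next to cytochrome b, was likewise lowest in heterozygotes, with 5241, 5123 and 8207 in homozygous mutants, 4557, 4866 and 5096 in heterozygotes and 6922, 5999.8 and 6115 in wild type. Its log2 difference of heterozygous minus wild type was -0.39 (interval -0.79 to 0.01), the smallest unadjusted p of complex III in that comparison. Uqcr10, a small accessory subunit, had the lowest difference of all members in that comparison, -0.53 (-1.09 to 0.03), with 6439.6, 6553 and 8720.3 in heterozygotes and 12541, 8025 and 11041 in wild type, which overlapped. Cyc1, the haem subunit that feeds cytochrome c, overlapped in all genotypes and had -0.12 (-0.52 to 0.28) in homozygous mutant minus wild type. Uqcrb, which lies beside the coenzyme Q site, had 0.27 (-0.14 to 0.68), or 0.04 without 8a, with 4478, 5069 and 7582 in homozygous mutants and 4196, 4801 and 4891 in wild type.

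In complex IV, 10 of 13 members were positive in homozygous mutant minus wild type and 12 of 13 negative in heterozygous minus wild type. The 9 of 13 tested probe sets with a name ending in _f_at or _r_at are less specific and can read related genes. Cox7a2l, which joins complexes III and IV into supercomplexes, had the largest difference of all members. One of its probe sets read 8672, 7912 and 16412 in homozygous mutants 2, 6 and 9b, 4322, 4804 and 5182 in heterozygotes and 4904, 4588 and 6044 in wild type. All homozygous mutants were above all other arrays, with 9b far above 2 and 6. The log2 difference from wild type was 1.02 (interval 0.45 to 1.58, limma's adjusted p = 0.125) and from heterozygotes 1.13 (0.56 to 1.70, adjusted p = 0.0644), and without 9b these were 0.69 and 0.80.

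The second Cox7a2l probe set disagreed. It read 5094, 444 and 13571 in homozygous mutants 2, 6 and 9b, against 3348, 3346 and 6329.8 in heterozygotes and 4718, 3490.5 and 5919 in wild type. Homozygous mutant 6 was under the floor and 9b was the highest array, so the group spanned all others. The log2 difference from wild type was -0.48 with an interval of -2.41 to 1.46. Both probe sets carry the less specific ending, and which of them reads Cox7a2l alone was not tested.

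Heart and skeletal muscle use their own forms of some subunits of complex IV. Cox6a2, the muscle form, was dim. On type a it read 263, 405 and 2016 in homozygous mutants 2, 6 and 8a, 392, -0.6 and 783 in heterozygotes 3, 4 and 8, and 292, 570.5 and 779 in wild type 1, 5 and 7. On type b it read 452, 728 and 3214 in homozygous mutants 2, 6 and 9b, 731, 296 and 507 in heterozygotes and 544, 679 and 1276 in wild type. On both types 8a or 9b was the highest array by far, and homozygous mutants 2 and 6 lay within the range of wild type or under it. The log2 difference of homozygous mutant minus wild type was 0.29 for the type a probe set (interval -0.96 to 1.54) and 0.46 for the type b probe set (-0.80 to 1.71), and -0.50 and -0.34 without 8a and 9b.

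The heart muscle list was also highest in 8a and 9b, at a median deviation of 0.86. Whether Cox6a2 follows heart muscle content was not tested. The muscle form Cox8b was under the floor on every array, with 272 in 8a as its highest value, and the testis form Cox8c was above the floor on 1 array, 8a. Cox6a1, the general form, read 16912, 18189 and 26154 in homozygous mutants, 17850.1, 17290.3 and 18810.2 in heterozygotes and 17578, 19832 and 18477 in wild type. Again 8a was the highest array, and homozygous mutants 2 and 6 lay within the range of wild type or under it. The log2 difference was 0.11 (-0.27 to 0.49), and -0.09 without 8a.

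**Figure D4:**
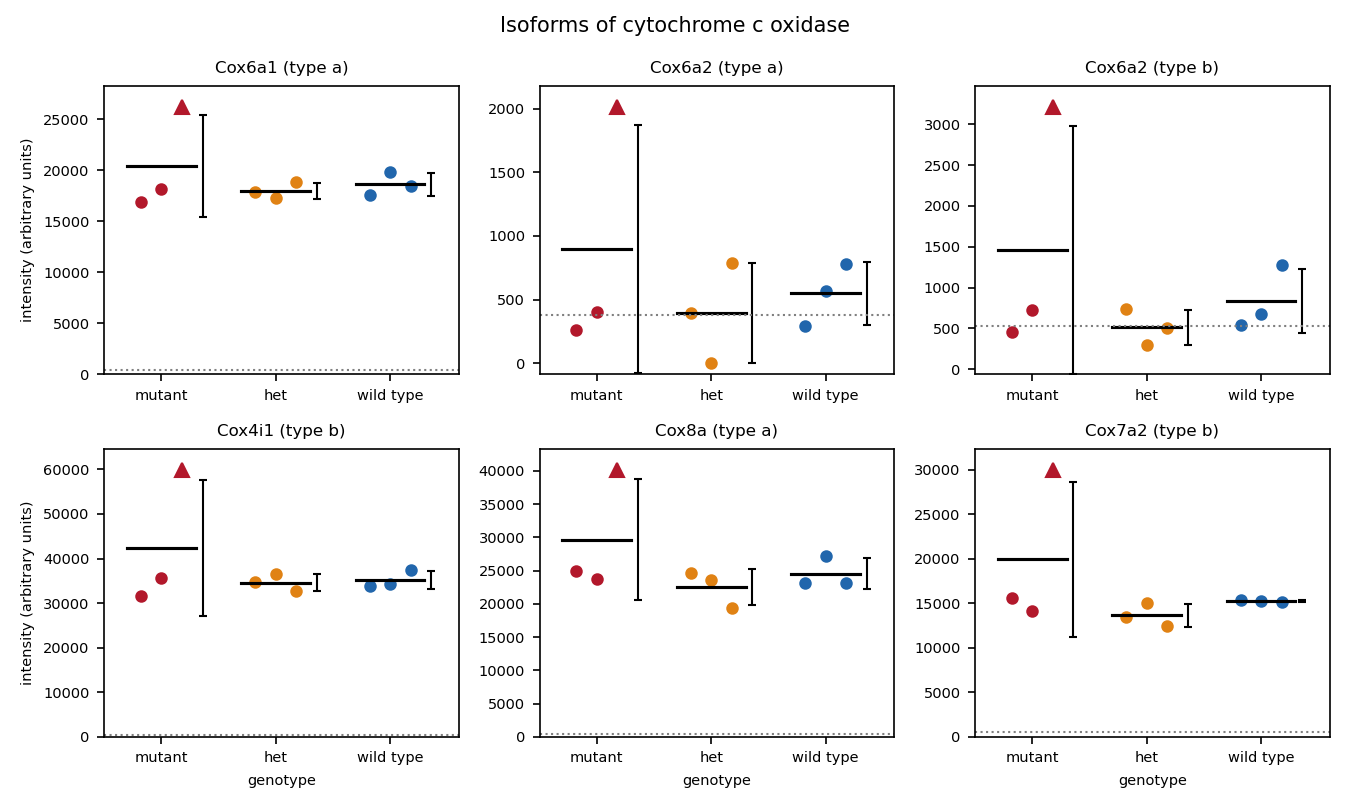
Intensity of complex IV isoforms by genotype, with a point for each array, the mean as a black bar, the SD beside it and the floor as a dotted line. Homozygous mutant 8a or 9b, drawn as a triangle, is the highest array in each panel, and for the muscle form Cox6a2 it reads 2016 and 3214 against at most 783 and 1276 elsewhere.

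Of the general forms of other subunits, Cox7a2, Cox4i1 and Cox8a showed the same single high array. Cox7a2 read 15636, 14192 and 30005 in homozygous mutants 2, 6 and 9b, 13428, 15054 and 12497 in heterozygotes and 15341, 15282 and 15129 in wild type. Its heterozygotes were all under wild type. Cox4i1, which carries the ATP-sensing site of the complex, read 31680.5, 35551 and 59871 in homozygous mutants, 34647, 36469.5 and 32713 in heterozygotes and 33734, 34254 and 37382 in wild type. Cox8a had a log2 difference of homozygous mutant minus wild type of 0.24 (-0.22 to 0.69), and Cox5a of -0.09 (-0.48 to 0.29). Without 8a or 9b the difference was -0.03 for Cox7a2, -0.06 for Cox4i1, -0.00 for Cox8a and -0.22 for Cox5a.

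Cox6c, a general accessory subunit, read 19296, 19216 and 28889 in homozygous mutants, 14758, 16559 and 15207 in heterozygotes and 19832, 16946 and 17043 in wild type. Heterozygotes were under all other arrays, at a log2 difference from wild type of -0.21 (-0.60 to 0.18), and homozygous mutants were above heterozygotes by 0.51 (0.12 to 0.90, limma's adjusted p = 0.191), or 0.31 without 8a. Cox7b had no overlap either, with 4672, 5117 and 4848 in homozygous mutants and 4186, 3541 and 4505 in wild type. The probe sets of Cox7c differed in sign, with 0.21 on type b, where the mean intensity was 37773, and -0.07 on type a, where it was 378 and near the floor.

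In complex V, 8 of 13 members (6 without 8a and 9b) were positive in homozygous mutant minus wild type and 10 of 13 negative in heterozygous minus wild type. All 4 tested probe sets of the catalytic head were positive in homozygous mutant minus wild type (0.01 to 0.29) and negative in heterozygous minus wild type (-0.36 to -0.01). Without 8a and 9b the first differences were -0.12 and 0.00 for Atp5a1, -0.06 for Atp5b and 0.32 for Atp5c1. The shared positive sign was thus lost, while Atp5c1 stayed positive. Atp5b, its beta subunit, read 33827, 37609 and 45327 in homozygous mutants, 39180.4, 36122 and 31235 in heterozygotes and 33966, 41645 and 36607 in wild type. The groups overlapped, with a log2 difference of 0.05 (-0.34 to 0.44). Both probe sets of Atp5a1, the alpha subunit, were close to wild type in homozygous mutants (0.01 and 0.09), and on type b it was -0.36 (-0.83 to 0.11) in heterozygotes.

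Atp5pb, the b subunit of the stalk that holds the head still, was the member of complex V with the smallest p. It read 1038, 1249.7 and 1353 in homozygous mutants 2, 6 and 9b, 1009.7, 582 and 686 in heterozygotes and 744, 756 and 619 in wild type. Homozygous mutants were above all other arrays, here without 9b standing far apart. The log2 difference from wild type was 0.78 (interval 0.21 to 1.34, limma's adjusted p = 0.265), and without 9b it was 0.69. The other stalk subunits had -0.08 (-0.41 to 0.26) for Atp5j and -0.02 (-0.45 to 0.42) for Atp5o. Atp5c1, the rotor shaft of the head, was the other member of complex V without overlap, with 13221, 12282 and 11892 in homozygous mutants and 10861, 10659 and 9165 in wild type.

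Small membrane subunits of complex V, which shape the dimers of the enzyme, had log2 differences of homozygous mutant minus heterozygous that were positive in all 5 (0.10 to 0.61), and without 8a and 9b in 4 of 5 (-0.11 for Atp5j2 to 0.49 for Atp5l). Atp5mpl read 20138, 17666 and 28377 in homozygous mutants, 15068, 14832 and 13123 in heterozygotes and 20067, 15318 and 17714 in wild type. Heterozygotes were under all other arrays, and homozygous mutants overlapped wild type. The log2 difference of homozygous mutant minus heterozygous was 0.59 (0.18 to 1.01, limma's adjusted p = 0.153). Atp5d was under the floor on every array and was not tested.

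Cytochrome c (Cycs), the mobile carrier between complexes III and IV, had negative differences from wild type for both probe sets in both mutant genotypes. Its brighter probe set read 13153, 15339.9 and 17325 in homozygous mutants 2, 6 and 9b, 20368, 19694 and 16676 in heterozygotes and 17838, 22571 and 21933 in wild type. Homozygous mutants were all under wild type, with 9b close to the lowest wild-type array. The log2 difference was -0.45 (interval -0.85 to -0.04, limma's adjusted p = 0.388), and without 9b it was -0.54. The dimmer probe set read 5699.7, 8768 and 6922 in homozygous mutants, 8004, 6578 and 6743 in heterozygotes and 9072, 7959.7 and 10385 in wild type. Its groups overlapped, at -0.37 (-0.80 to 0.06) in homozygous mutants and -0.36 (-0.79 to 0.07) in heterozygotes. With Sdhaf1 the brighter probe set made 2 members lower in homozygous mutants without overlap, which 8.19% of all tested probe sets were.

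In heterozygotes the replicates lay close together. The median deviations of -0.10, -0.11 and -0.12 in replicates 3, 4 and 8 were all under the wild-type range of -0.04 to 0.03. Deviations were taken from the mean of these same wild-type arrays, which narrows the wild-type range. An error in that mean would shift all heterozygotes alike, so their replicates are not independent in this measure. All heterozygotes were under all wild-type arrays in 10 of 61 members (16.4%), and above them in 0, against 2.64% and 3.73% of all tested probe sets. The 10 were Ndufa1, Ndufa12, Ndufa5, Ndufb5 and Ndufs4 of complex I, Uqcrfs1 and Uqcrq of complex III, Cox6c and Cox7a2 of complex IV and Atp5mpl of complex V. Of these 8 are accessory subunits, as are 33 of all 61 tested members. Ndufa12 had the smallest p of complex I, with 8074, 6904 and 5996 in heterozygotes against 9079, 9541 and 8521 in wild type and a log2 difference of -0.38 (-0.85 to 0.08). The median difference of -0.13 was smaller than the median SE of a member, 0.198. Heart muscle markers were lower in heterozygotes as a group, with 13 of 14 probe sets negative at a median of -0.23. Their replicates did not lie close together, with median deviations of -0.32, -0.67 and 0.07 in heterozygotes 3, 4 and 8. In wild type these ran from -0.28 to 0.27. That the members as a group were low in heterozygotes was known when they were chosen.

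Most members are bright. Among the 42 members with a mean intensity over 5000, a level chosen after the data were seen, 39 were negative in heterozygous minus wild type (92.9%), at a median of -0.16. Among the other 1232 tested probe sets over that level 56.7% were negative, at a median of -0.02. Of the 19 dimmer members 11 were negative. The bright members also had a median deviation of 0.47 in homozygous mutants 8a and 9b, against 0.07 for the other bright probe sets.

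**Figure D5:**
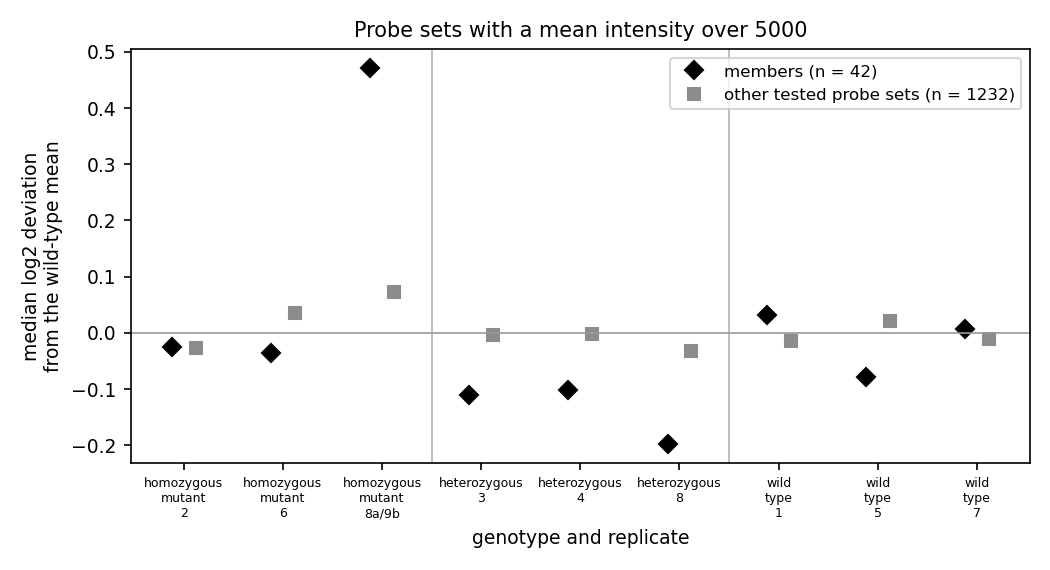
Median log2 deviation from the wild-type mean, by genotype and replicate, of the 42 members (diamonds) and the 1232 other tested probe sets (squares) with a mean intensity over 5000. In the heterozygotes the members lie between -0.20 and -0.10 and the others no lower than -0.03, and in homozygous mutants 8a and 9b they lie at 0.47 and 0.07.

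With 8a and 9b included, the members were further apart in median between homozygous mutants and heterozygotes than in the other comparisons. In homozygous mutant minus heterozygous the median of the members was 0.16 with 47 of 61 positive, against -0.07 with 2943 of 6935 over all tested probe sets, and complexes III, IV and V had 0.28, 0.36 and 0.23. Without overlap 15 members were higher and 2 lower (24.6% and 3.28%), where 9.99% and 12.6% of all tested probe sets were. Without 8a and 9b the median fell to 0.05, with 38 of 61 positive, and complexes IV and V had 0.06 and 0.03. At an unadjusted p under 0.05 there were then 9 higher and 4 lower members, against 7.89% and 8.35% of all probe sets. The lead of homozygous mutant minus heterozygous was thus lost without 8a and 9b, while heterozygous minus wild type kept 50 of 61 members negative. Measured against the midpoint of the other 2 genotypes, heterozygotes had 0 called members (0.0144% of all), with a median of -0.15, 11 members lower at an unadjusted p under 0.05 (3.35% of all probe sets) and 0 higher (4.53%).

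Other genes of the pathway were listed by function. Of 39 listed assembly factors outside the member rule 13 were tested, and 0 were called against wild type in either genotype. Higd1a, an inner membrane protein that binds complex IV and is induced by low oxygen, was called higher in homozygous mutants against heterozygotes. It read 14288.5, 12787 and 23486 in homozygous mutants 2, 6 and 8a, 6807, 6929 and 8886 in heterozygotes and 6505.5, 7794 and 9473 in wild type. Homozygous mutants lay above all other arrays, as in Ndufv3 and the brighter Cox7a2l probe set. The log2 difference was 1.12 from heterozygotes (limma's adjusted p = 0.0433) and 1.05 from wild type (adjusted p = 0.0709). It passed against heterozygotes in 6 of 20 alternatives, and without 8a that difference was 0.85 and no longer passed (adjusted p = 0.0586). The other 12 assembly factors had log2 differences from wild type of -0.57 (Acad9) to 0.39 (Cox17), and 11 of all 13 were negative in heterozygous minus wild type.

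The mitochondrial ribosome, which makes the subunits encoded by mitochondrial DNA, had 33 tested probe sets for 30 genes. Mrpl20, a protein of its large subunit, fell in homozygous mutants to 1676.0, 1926 and 2004, against 3829, 3714 and 2828 in heterozygotes and 3794, 3573 and 3772 in wild type. The log2 difference was -0.99 from wild type (limma's adjusted p = 0.0191) and -0.88 from heterozygotes (adjusted p = 0.0324), and it passed against wild type in 12 of 20 alternatives (adjusted p = 0.00849 to 0.0904). No other gene of the list was called, and the list's medians were -0.07 in homozygous mutant minus wild type and -0.03 in heterozygous minus wild type.

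The enzymes that feed the chain gave no call. Citrate cycle and pyruvate dehydrogenase genes (9 tested, median 0.14 in homozygous mutant minus wild type) held values in both directions, with a subunit of isocitrate dehydrogenase, Idh3a, at -0.63 (adjusted p = 0.544), citrate synthase, Cs, at -0.56 (limma's adjusted p = 0.17) and a subunit of succinyl-CoA ligase, Suclg1, at 0.48 (adjusted p = 0.347). Carriers and channels of the mitochondrial membranes (9 genes) had a median of -0.08, with -0.28, -0.41 and -0.42 for the 3 probe sets of Slc25a5, an ADP and ATP exchanger. Genes that control mitochondrial transcription (9 genes) had a median of -0.07 and ran from -0.28 (Tfb2m) to 0.14 (Tfam). In heterozygous minus wild type the medians of these lists were 0.06, -0.07 and -0.03, with 0 calls in each.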

How the data were processed

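Total RNA of 18 arrays, 9 of each of 2 types, was measured as intensity on short-oligonucleotide arrays. The deposited intensity values are on a linear scale and hold negative values, so a background had been subtracted by the authors. For the method of background subtraction, the software and the scaling, the answer is not given in the sources used here. Noise was 1.4826 times the median size of the negative values of a type, and the floor was 2 times that. A probe set was tested if it was above the floor on at least 3 of 9 arrays. Floored values were set on the log2 scale and fitted with limma 3.58.1 in R 4.3.3 (lmFit, eBayes with trend), all 3 genotypes of a type together, with Benjamini-Hochberg adjustment over both types. Intervals are 95% intervals of that fit. The procedure was tested on simulated data. Arrays keep the authors' scaling, and levels were not compared between probe sets, whose number of arrays limits the precision. One type b array of a heterozygote lacked 499 values, none of them in a member.

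The labels do not say whether arrays of a genotype came from separate embryos or pools, so p-values measure only the spread between these arrays. The members and gene lists were chosen with earlier results of these data known. Genes named were the probe set of smallest p in each complex and comparison, listed isoforms and regulators, and genes whose probe sets differ in sign. Members named for lack of overlap between groups, Uqcr10, Ndufaf1, Ndufs3, Ndufv1, Ndufv2, the other members of complex V and the genes of other lists were named after their values were seen. Alternatives changed the floor, the filter, the scaling, the prior, the adjustment, array weights, the groups fitted, 1 probe set a gene and each replicate in turn. Leaving out family probe sets was chosen after seeing the data. Probe sets with several symbols (3 that name a chain gene) were left out. The core of the promoter motif was searched after a longer form of it.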

Additional observations from a re-analysis of the deposited data

How the results depend on the processing

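Of 581 median values under the alternatives 543 kept within the replicate spread and 38 moved, and of 79 counts of called members 75 stayed at 0 or within the margin and 4 moved. Among 2080 values of named members, of which none was called at first, 57 moved, 7 passed the threshold and 96 changed sign. In homozygous mutant minus heterozygous 6 of 61 members were called with array weights, which called 9.78% of all probe sets, 1 of 53 with the floor at 4 times the noise SD (1.82% of all), and 0 to 2 on leaving out 1 replicate (2 without homozygous mutant 6, 1.24% of all). Against the midpoint 1 was called in heterozygotes with array weights (1.57% of all). The counts with array weights were at the background. Bringing arrays to the same median moved the median of all probe sets to -0.09 in heterozygous minus wild type and to 0.06 in homozygous mutant minus heterozygous. The medians of heterozygous minus wild type then were -0.25 for all members, -0.16 for complex I and -0.47 for cytochrome c, and those of homozygous mutant minus heterozygous 0.28 for all, 0.25 for I, 0.077 for II, 0.38 for V and 0.030 for cytochrome c. Against the midpoint they were -0.21 for I, -0.16 for II and -0.25 for cytochrome c, and in homozygous mutant minus wild type 0.050 for I. For complex I in homozygous mutant minus wild type, 1 probe set a gene gave -0.031, and both leaving out family probe sets and a floor at 1 times the noise SD gave 0.060. Leaving out family probe sets gave -0.38 for complex II and 0.29 for complex V there, and -0.20 for II against heterozygotes. For complex II, which rests on 3 probe sets, homozygous mutant minus wild type was -0.37 with the floor at 4 times the noise SD, 0 with no filter and -0.52 with at least 6 arrays, homozygous mutant minus heterozygous was -0.17, -0.31 and -0.19 with the floor at 4 times, at least 6 arrays and array weights, and against the midpoint it was 0.056 with at least 6 arrays and 0.047 with array weights. With the floor at 4 times complex I was -0.14 against the midpoint. The cause of these moves was not tested.

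On leaving out 1 replicate, homozygous mutant minus wild type ran from -0.062 to 0.14 for all members, from 0.00033 to 0.059 for complex I, from -0.087 to 0.19 for III, from -0.0031 to 0.17 for V and from -0.062 to 0.37 for complex IV. Heterozygous minus wild type ran from -0.12 to -0.064 for complex I. Homozygous mutant minus heterozygous ran from 0.085 to 0.15 for I, -0.17 to 0.069 for II, 0.063 to 0.50 for IV and 0.028 to 0.32 for V. Against the midpoint it ran from -0.16 to -0.075 for I and -0.15 to 0.060 for II. No paired analysis was possible because the genotypes share fewer than 2 replicate numbers. A fit of only the groups compared gives no value against the midpoint. Dim members such as Sdhc, Cox6a2 and Ndufaf4 lie at the floor on some arrays, which bounds their differences.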
